A study of Mus musculus with 8 samples.

Results

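A set of 10 genes for the downstream enzymes of mitochondrial fatty acid oxidation and their electron acceptor was followed in white quadriceps of mice that lack the thioesterase gene Acot2 in muscle. They were chosen by name: Hadha and Hadhb (trifunctional protein), Echs1 (enoyl-CoA hydratase), Hadh (hydroxyacyl-CoA dehydrogenase), Acaa2 (thiolase), Eci1 (enoyl-CoA isomerase), Decr1 (dienoyl-CoA reductase), Etfa and Etfb (subunits of the electron transfer flavoprotein, ETF) and Etfdh (its dehydrogenase). All 10 were found among the 54091 rows of the table, and all 10 were among the 15657 genes tested. RNA of white quadriceps, a pale thigh muscle rich in fast fibres, was sequenced from male mice of 11 to 14 weeks. Both groups had been on a diet with 60% fat for 7 days. Controls (4 libraries, replicates 1 to 4) were labelled Loxp/Loxp, with Acot2 flanked by loxP sites, and knockouts (4 libraries, replicates 5 to 8) were labelled CKM Cre. The Ckm promoter, of muscle creatine kinase, drives Cre in striated muscle, so other cells of the tissue can keep Acot2. No library came from Cre mice without loxP sites, so effects of Cre itself and of the lost gene cannot be told apart. Nothing in the labels ties each library to a separate animal, and p-values here therefore reflect the spread of these samples, which may be technical.

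β-Oxidation shortens a fatty acyl-CoA in the mitochondrial matrix in repeated rounds of dehydrogenation, hydration, a second dehydrogenation and thiolysis. The trifunctional protein, made of Hadha and Hadhb at the inner membrane, carries out the last 3 of these steps on long chains, and Echs1, Hadh and Acaa2 are soluble enzymes that act on shorter chains. Eci1 and Decr1 move or remove double bonds so that unsaturated fatty acids can enter the same rounds. The first dehydrogenation hands its electrons to ETF, and Etfdh passes them from ETF to ubiquinone in the respiratory chain. Inherited loss of ETF or Etfdh impairs the use of fatty acids and some amino acids.

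Hadha and Hadhb lie head to head on chromosome 5, Hadha on the minus strand (30118304 to 30155162) and Hadhb on the plus strand (30155248 to 30184593, GRCm38). These GENCODE starts are 85 bases apart, and RefSeq places the starts 272 bases apart. The stretch between the RefSeq starts, which holds both GENCODE starts, is shown because the genes of both subunits of 1 complex begin there. Both counts were highest in control 3, while the ratio of Hadha to Hadhb ran from 0.75 to 1.06 over the libraries. The stretch is followed by the 250 bases upstream of the RefSeq starts of both ETF subunit genes and of Etfdh. These were taken since Etfb differed most of the 10 genes and Etfa and Etfdh encode its partners. The sequences come from RefSeq's promoter windows (GRCm38.p6), of which 8 of the 10 genes were searched, at chr5:30154981-30155252 (plus strand), chr9:55512244-55512493 (minus strand), chr7:43443822-43444071 (plus strand) and chr3:79628768-79629017 (minus strand) in this order. The Etfdh window lies inside the GENCODE gene, which begins farther upstream than the RefSeq one. Capitals mark matches on either strand to the GC box GGGCGG, the CCAAT box CCAAT and the NRF1 site.
Hadha-Hadhb: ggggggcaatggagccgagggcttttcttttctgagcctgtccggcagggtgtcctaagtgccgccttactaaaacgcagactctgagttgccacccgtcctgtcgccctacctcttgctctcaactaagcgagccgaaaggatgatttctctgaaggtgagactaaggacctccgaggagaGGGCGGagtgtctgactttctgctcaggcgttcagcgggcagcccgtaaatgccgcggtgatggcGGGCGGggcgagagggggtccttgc
Etfa: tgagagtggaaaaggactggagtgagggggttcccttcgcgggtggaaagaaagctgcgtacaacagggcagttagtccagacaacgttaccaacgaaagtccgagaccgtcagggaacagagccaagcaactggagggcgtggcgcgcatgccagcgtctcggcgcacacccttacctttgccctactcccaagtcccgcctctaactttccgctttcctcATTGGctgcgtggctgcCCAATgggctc
Etfb: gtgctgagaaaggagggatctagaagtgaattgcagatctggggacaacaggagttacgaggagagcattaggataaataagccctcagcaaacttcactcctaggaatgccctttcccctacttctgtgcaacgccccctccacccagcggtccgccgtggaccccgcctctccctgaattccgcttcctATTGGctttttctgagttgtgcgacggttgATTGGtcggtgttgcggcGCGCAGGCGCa
Etfdh: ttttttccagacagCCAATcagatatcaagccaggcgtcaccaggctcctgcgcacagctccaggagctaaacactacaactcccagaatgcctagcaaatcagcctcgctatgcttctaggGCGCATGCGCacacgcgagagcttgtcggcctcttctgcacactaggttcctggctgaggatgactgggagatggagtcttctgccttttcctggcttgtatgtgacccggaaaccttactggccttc

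The Hadha-Hadhb stretch of 272 bases held 2 GC boxes and no CCAAT box. The Etfa and Etfb windows held 2 CCAAT boxes each, close to the start, and the Etfdh window held 1. NRF1 sites were found in Etfb and Etfdh. Over the 300-base windows (250 bases before and 50 after each start) of the 8 genes, 7 held a GC box, 4 a CCAAT box and 2 an NRF1 site, against 35.91%, 37.92% and 4.78% of all 27025 windows. The Hadha and Hadhb windows overlap, and the same GC box counts for both. Those of Etfb and Etfdh lie after the start, outside the printed bases. The printed sequences held 54.4% to 60.3% G and C, against a median of 52.0% over the 250 bases upstream of all starts. The motif of the estrogen-related receptors (TCAAGGTCA) was in 0 of the 8 windows and in 0.41% of all, and the PPAR direct repeat was in 0 of 8 and in 0.04% of all. These are matches of letters in short windows and no measure of binding.

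Acot2 matched the labels: its normalized count was 2166 to 4165 in controls and 256.4 to 354.0 in knockouts (log2 difference -3.24, SE 0.20, limma, adjusted p = 4.72e-06). The libraries held 55284020 to 109101280 reads. Control replicates 3 and 4 stood apart from the other 6. In a principal component analysis the leading axis, with 34.5% of the variance, placed them at -55.24 and -56.07 and the others between -0.56 and 38.57, and they carried a length trend. In the quartile of genes with the shortest mRNAs, the median deviation from each gene's mean was -0.32 and -0.34 in these libraries (log2), 0.05 and 0.07 in control replicates 1 and 2, and 0.11 to 0.19 in the knockouts. In the quartile of longest mRNAs the order turned, with 0.26 and 0.30 in control replicates 3 and 4 and -0.13 to -0.05 in the other 6. By mRNA length, Echs1, Acaa2, Eci1, Etfa and Etfb of the 10 genes fall in the shortest quartile, and none falls in the longest. By exon length, Acaa2, Eci1, Etfa and Etfb fall in the shortest quartile, and Hadha, Hadhb, Echs1 and Etfdh fall in the longest. The plot of the length trend shows this split of the controls.

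**Figure D1:**
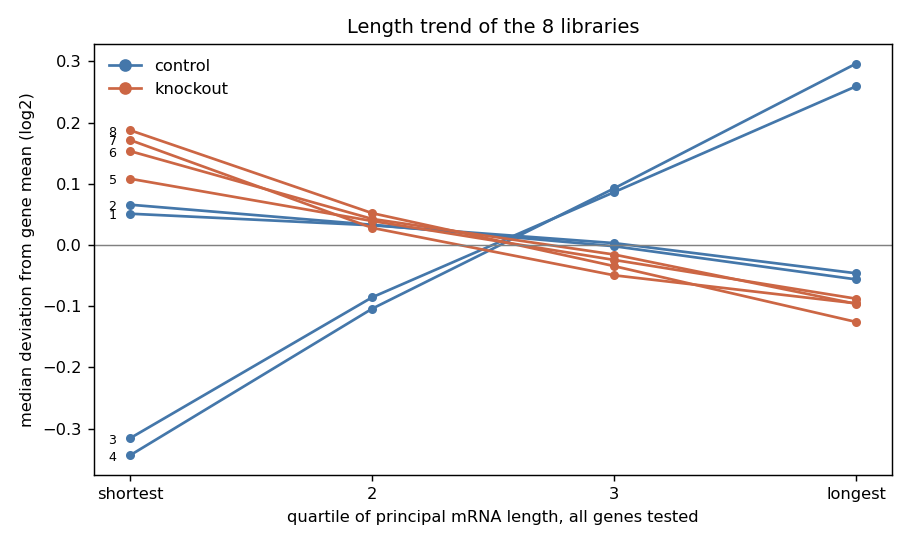
Median over genes of the deviation from the gene's 8-library mean (log2, vertical axis) by quartile of principal mRNA length over all genes tested (horizontal axis), with a line for each library and replicate numbers at the left. Control replicates 3 and 4 run from -0.32 and -0.34 in the shortest quartile to 0.26 and 0.30 in the longest, opposite to the knockouts.

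None of the 10 genes passed the threshold (limma, Benjamini-Hochberg adjusted p of 0.05 over all genes tested), where 0.00639% of all genes did, namely Acot2 alone. At an unadjusted p of 0.05 only Etfb passed, 1 of 10, against 26.9% of all genes. The 4 control and 4 knockout values overlapped in all 10, whereas they did not overlap in 13.1% of all genes (6.06% higher and 7.06% lower in knockouts). By these counts the 10 genes differed between the groups no more often than genes at large. Their median log2 difference was 0.16, with 7 higher and 3 lower estimates, beside a median of 0.00 over all genes. The trend of length and GC was removed in 2 ways, on exon length as planned and on the length of the principal mRNA, which was chosen after seeing the data. On exon length the median of the 10 was 0.07, with 7 higher and 3 lower. On mRNA length it was 0.00, with 5 higher and 5 lower. Without control replicates 3 and 4 and with no trend removed, the median was 0.02, with 6 higher and 4 lower. With these left out as well, it was 0.03 on exon length (6 higher, 4 lower) and -0.02 on mRNA length (4 higher, 6 lower). The plot of values by library shows all 10.

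**Figure D2:**
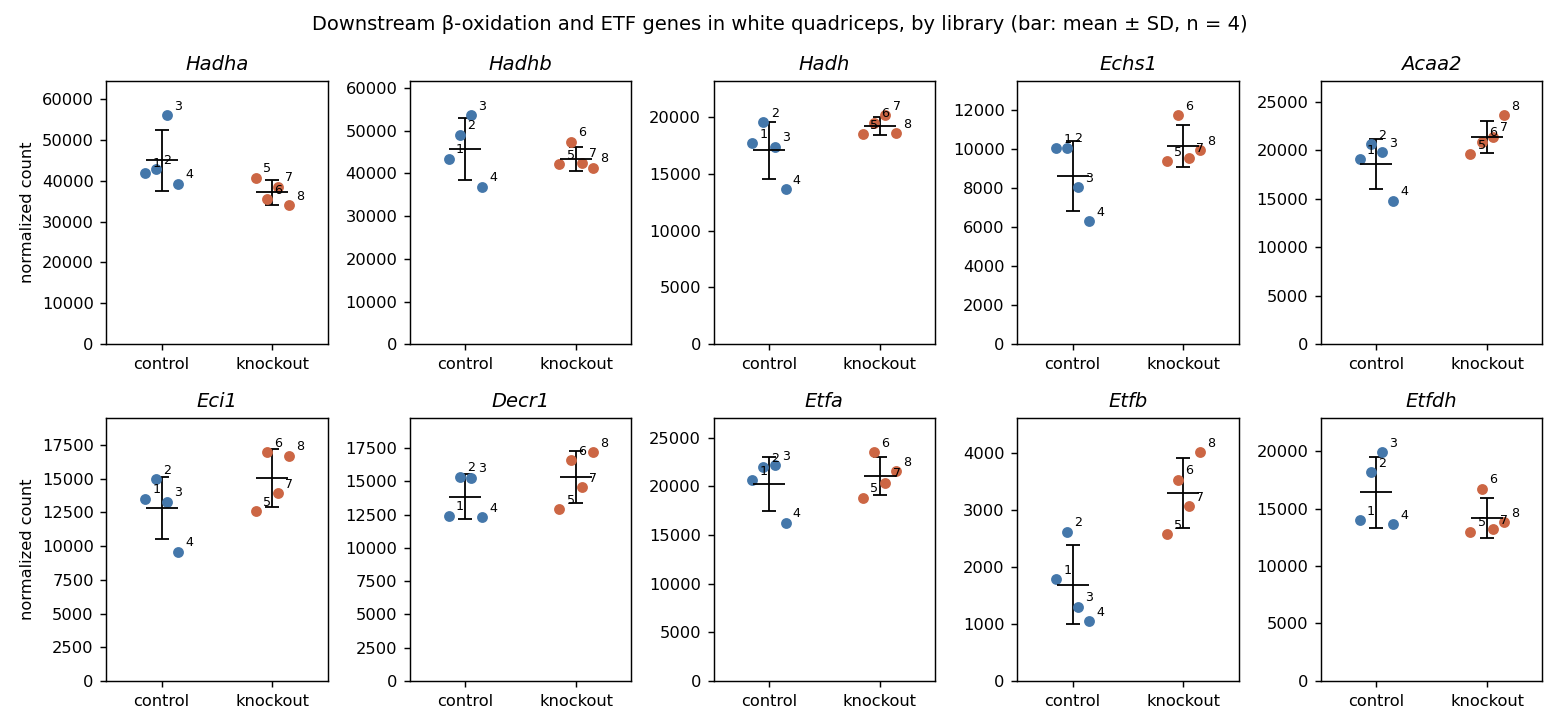
Normalized counts (vertical axes, from 0) of the 10 genes in the control and knockout libraries, with the replicate number beside each point and bars for the mean and SD (n = 4 each). Control replicate 4 is the lowest library in 8 of the 10 panels, and control 2 (2612) reaches above knockout 5 (2568) for Etfb.

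Hadha encodes the subunit of the trifunctional protein with the hydratase and long-chain hydroxyacyl-CoA dehydrogenase activities. In order of replicate number, the controls had normalized counts of 41987, 42864, 55963 and 39208, and the knockouts had 40740, 35474, 38540 and 33932. Control 3 was far above the rest, 3 of the 4 knockouts lay under every control, and knockout 5 lay between control 4 and control 1. The means were 45005 ± 7469 and 37171 ± 3054 (SD, n = 4 each), giving a log2 difference of -0.27 ± 0.13 (SE). It did not pass (adjusted p = 0.195 by limma), and the exact two-sided permutation p was 0.0571. The difference was -0.07 with the exon length trend removed, -0.15 with the mRNA length trend removed and -0.19 without control replicates 3 and 4.

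Hadhb encodes the thiolase subunit. Its normalized count was 43456, 49128, 53620 and 36916 in controls and 42197, 47485, 42512 and 41340 in knockouts. The knockouts lay inside the control range, and both the lowest and the highest of the 8 values were controls. The log2 difference was -0.07 ± 0.13 (SE, limma, adjusted p = 0.764), with a 95% interval from -0.34 to 0.20. It was 0.10 with the exon length trend removed and -0.09 with the mRNA length trend removed. The Hadhb count is uncertain, because 62.4% of the 50-base windows of its mRNA also occur in the processed pseudogenes Gm13910 and Gm9108. Gm13910 itself was counted at 680.0 to 1151, at most 2.15% of Hadhb in any library, and Gm9108 at 9.5 to 22.4. Reads that align to gene and pseudogene alike may have been dropped or split, which was not tested.

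The ratio of Hadha to Hadhb varied between libraries. It was 0.97, 0.87, 1.04 and 1.06 in controls and 0.97, 0.75, 0.91 and 0.82 in knockouts, so that control 2 lay among the knockouts and control 1 was level with knockout 5. The ratio in knockouts was 87.1% of that in controls (exact two-sided permutation p = 0.114; p = 0.133 adjusted over the 7 ratios compared). Its log2 difference was -0.20, or -0.17 with the exon length trend removed and -0.06 with the mRNA length trend removed.

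The soluble enzymes of shorter chains had higher estimates in knockouts. Echs1, the hydratase, ran from 6309 to 10075 in controls and from 9364 to 11722 in knockouts, with an estimate 0.26 ± 0.15 higher on the log2 scale (SE; adjusted p = 0.282 by limma). Hadh, which oxidizes the hydroxyacyl-CoA that Echs1 makes, ran from 13619 to 19551 in controls and from 18488 to 20130 in knockouts (0.18 ± 0.12, adjusted p = 0.346). Acaa2, the thiolase that releases acetyl-CoA, ran from 14801 to 20607 in controls and from 19591 to 23579 in knockouts (0.21 ± 0.12, adjusted p = 0.278). In all 3 genes control 4 was the lowest library, and controls 1 and 2 lay within the knockout range or just under it. Without control replicates 3 and 4 the log2 differences were 0.01 for Echs1, 0.04 for Hadh and 0.11 for Acaa2, and with the mRNA length trend removed they were 0.11, 0.07 and 0.02. With the exon length trend removed, Echs1 and Hadh were larger, at 0.44 and 0.24, and Acaa2 was at 0.01. The size of these 3 estimates thus varied with how length was taken into account.

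Control 4 was also the lowest library for both genes of unsaturated fatty acids. Eci1, which shifts a double bond to the position that the hydratase can use, ran from 9588 to 14954 in controls and from 12582 to 16983 in knockouts (log2 difference 0.24 ± 0.15, SE, limma, adjusted p = 0.312). Decr1, which reduces dienoyl-CoA with NADPH, ran from 12321 to 15334 in controls and from 12888 to 17201 in knockouts (0.14 ± 0.13, adjusted p = 0.475). Knockouts 6 and 8 were the 2 highest libraries for each, and knockout 5 lay within the control range. Without control replicates 3 and 4 Eci1 differed by 0.07 and Decr1 by 0.14. They differed with the exon length trend removed by 0.04 and 0.19, and with the mRNA length trend removed by -0.02 and 0.22. The ratio of Eci1 to Decr1 was 1.09, 0.98, 0.87 and 0.78 in controls and 0.96 to 1.02 in knockouts (exact two-sided permutation p = 0.457), so the controls spanned a wider range than the knockouts on both sides. Its log2 difference was 0.09, and it turned to -0.14 with the exon length trend removed (exact permutation p = 0.0571, adjusted p = 0.133). With the mRNA length trend removed it was -0.24 (exact permutation p = 0.0286, adjusted p = 0.1).

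Etfb was the gene of the 10 with the largest difference. Its normalized count was 1778, 2612, 1302 and 1044 in controls and 2568, 3524, 3063 and 4008 in knockouts. Control 2 lay just above knockout 5, and the other 3 controls lay under every knockout. The means were 1684 ± 690 and 3291 ± 617 (SD, n = 4 each), giving a log2 difference of 1.03 ± 0.24 (SE). The 95% interval, for this gene alone, ran from 0.51 to 1.56. It did not pass over all genes (adjusted p = 0.0796 by limma), and the exact two-sided permutation p was 0.0571. Under the 25 alternatives the difference kept its sign and ran from 0.47 to 1.27, with adjusted p from 0.018 to 0.678. It passed under 3 of them: without control 1 (1.09, adjusted p = 0.0438), without control 2 (1.27, adjusted p = 0.018) and with sample quality weights (1.03, adjusted p = 0.0401). All 3 keep control replicates 3 and 4, the 2 lowest libraries for Etfb. Without these 2 the difference was 0.59 (adjusted p = 0.603). It was 0.72 with the exon length trend removed (adjusted p = 0.0695) and 0.69 with the mRNA length trend removed (adjusted p = 0.0736). With these 2 libraries left out as well, it was 0.49 (adjusted p = 0.662) and 0.47 (adjusted p = 0.678) in turn.

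The Etfb count may cover only part of its transcript. Etfb lies on the plus strand of chromosome 7 (43444083 to 43457800, GRCm38), and its mRNA of 893 bases has 6 exons. In GENCODE M21 the protein-coding model Gm45233 (43444128 to 43463587), on the same strand, shares exons 2, 3, 4 and 5 in full and 63.1% of exon 1. Of the 6 exons, only exon 6 (43457570 to 43457800, 231 bases) is free of another model. Gm45233 is a row of the deposited table and is listed at 0 in all 8 libraries. Reads that could belong to either model may have gone uncounted for both, which was not tested. Of the other 9 genes, none shares exon bases with another gene on its strand, and Etfdh, Echs1 and Hadha share 3.7%, 1.7% and 0.9% with a gene on the opposite strand.

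Etfa encodes the other subunit of ETF and is on chromosome 9 (55454508 to 55512243). Its normalized count was 20673, 21961, 22172 and 16252 in controls and 18857, 23540, 20401 and 21570 in knockouts. The groups overlapped over most of their range, and the log2 difference was 0.06 ± 0.12 (SE, limma, adjusted p = 0.767), with a 95% interval from -0.20 to 0.33. It was -0.03 with either length trend removed. Within libraries, Etfb was counted at 0.086, 0.119, 0.059 and 0.064 of Etfa in controls and at 0.136, 0.150, 0.150 and 0.186 of it in knockouts. All 4 knockout ratios lay above all 4 control ratios, and the mean log2 ratio was 0.97 higher in knockouts (exact two-sided permutation p = 0.0286, the smallest that 4 against 4 libraries allow; p = 0.1 adjusted over the 7 ratios). This difference was 0.76 with the exon length trend removed and 0.72 with the mRNA length trend removed, and without control replicates 3 and 4 it was 0.61. Since Etfb reads may be missing from the count, the height of this ratio is no measure of the balance of the 2 mRNAs.

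Etfdh, on chromosome 3 (79603788 to 79629500), had a normalized count of 13992, 18156, 19927 and 13645 in controls and 12975, 16726, 13218 and 13831 in knockouts. Controls 2 and 3 were the highest libraries, and 2 of the knockouts lay under every control. The log2 difference was -0.20 ± 0.14 (SE, limma, adjusted p = 0.371), or -0.03 with the exon length trend removed and -0.20 with the mRNA length trend removed. Relative to Etfa, Etfdh stood at 0.68, 0.83, 0.90 and 0.84 in controls and at 0.69, 0.71, 0.65 and 0.64 in knockouts, a ratio 83.3% of that in controls (exact two-sided permutation p = 0.0857; p = 0.12 adjusted over the 7 ratios). Control 1 was the exception, within the knockout range. The log2 difference of this ratio was -0.26, or 0.01 with the exon length trend removed and -0.17 with the mRNA length trend removed (exact permutation p = 0.0857 again). The plot of differences sets all 10 genes beside their values under both length trends and without the outlying controls.

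**Figure D3:**
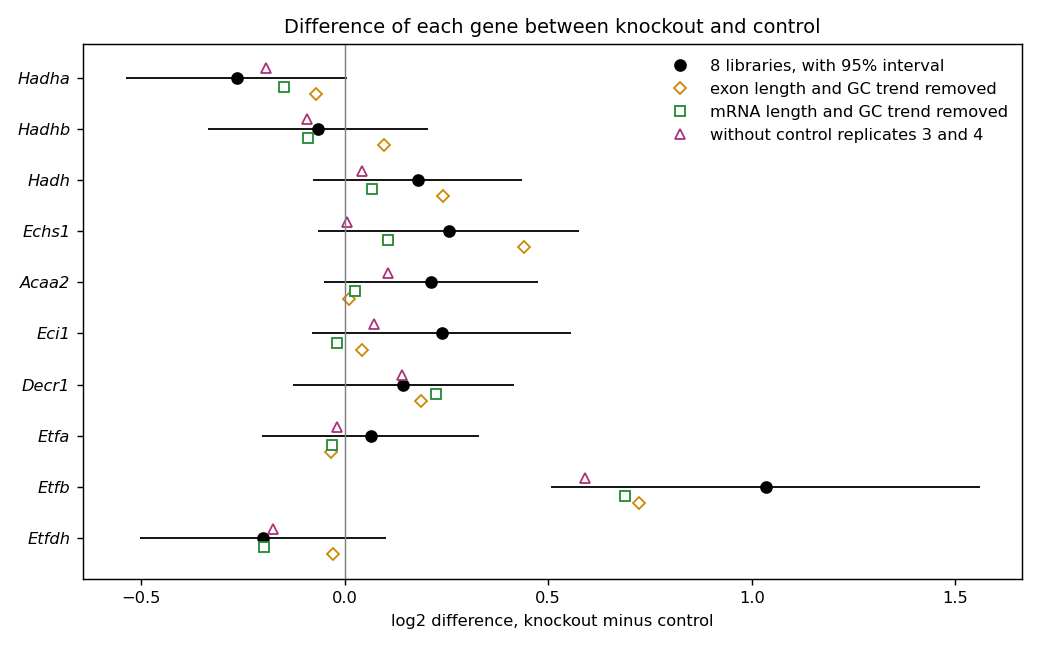
Log2 difference, knockout minus control (horizontal axis), for each of the 10 genes: filled circles with 95% intervals for the 8 libraries, diamonds with the exon length and GC trend removed, squares with the mRNA length and GC trend removed, triangles without control replicates 3 and 4. Only the interval of Etfb (0.51 to 1.56) lies clear of 0, and its diamond, square and triangle lie at 0.72, 0.69 and 0.59.

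Ratios between enzymes of successive steps or chain lengths were compared as well. The ratio of Acaa2 to Hadhb, the thiolases of shorter and longer chains, was 0.44, 0.42, 0.37 and 0.40 in controls and 0.46, 0.44, 0.50 and 0.57 in knockouts. The groups did not overlap, by a narrow margin between control 1 (0.4381) and knockout 6 (0.4396), and the log2 difference was 0.28 (exact two-sided permutation p = 0.0286; p = 0.1 adjusted over the 7 ratios). Hadh relative to Hadha was 0.31 to 0.46 in controls and 0.45 to 0.55 in knockouts (log2 difference 0.45, exact permutation p = 0.0571, adjusted p = 0.12), and Echs1 relative to Hadha was 0.14 to 0.24 in controls and 0.23 to 0.33 in knockouts (0.52, exact permutation p = 0.0857, adjusted p = 0.12). In both, control replicates 3 and 4 were the lowest libraries. No ratio passed after adjustment. The smallest exact p possible is 0.0286, so any ratio could pass only if most of the 7 reached it. The adjusted test therefore had little power to decide on a single ratio. In Acaa2/Hadhb, Hadh/Hadha and Echs1/Hadha the numerator has the shorter mRNA. With the mRNA length trend removed, their log2 differences were 0.12, 0.22 and 0.26. With the exon length trend removed they were -0.09, 0.31 and 0.51. The plot of ratios shows the 7 pairs.

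**Figure D4:**
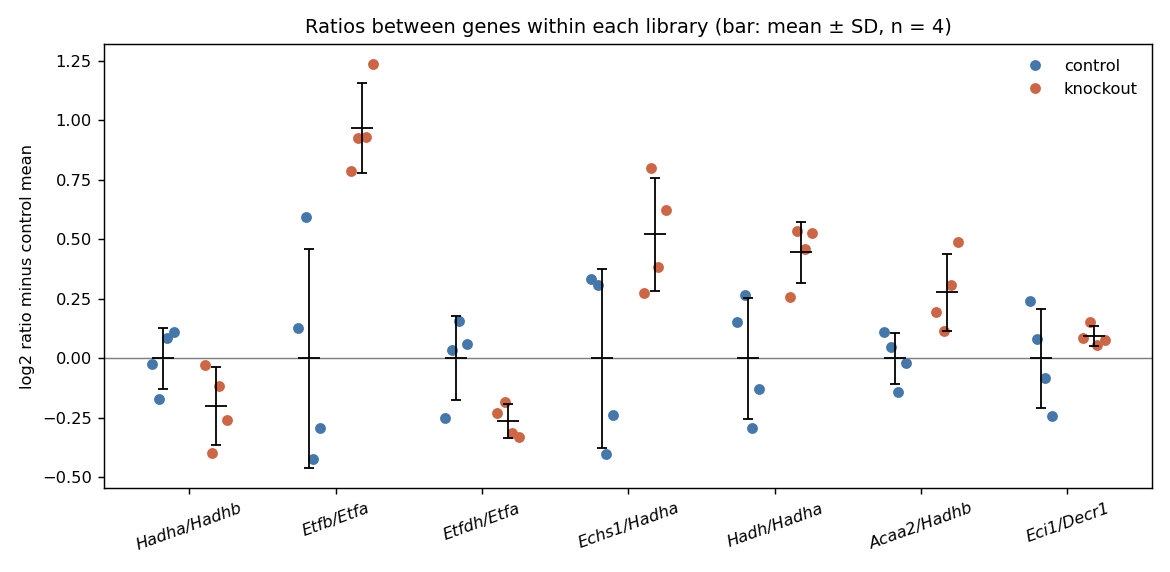
Log2 ratio between 2 genes within each library, minus the control mean of that ratio (vertical axis), for 7 pairs (horizontal axis), with bars for the mean and SD (n = 4 each). The knockout points lie above every control point for Etfb/Etfa (0.97 higher on average) and, narrowly, for Acaa2/Hadhb (0.28 higher).

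Per length of the principal mRNA, the 10 genes spanned a wide range of levels in control muscle. Hadhb was highest at 22354 ± 3528 normalized counts per kb (SD, n = 4), followed by Etfa at 14558 ± 1980, Acaa2 at 12236 ± 1702, Eci1 at 11289 ± 2012, Hadha at 11204 ± 1859 and Hadh at 9534 ± 1390. Etfdh (6912 ± 1306), Echs1 (5534 ± 1161) and Decr1 (4677 ± 574) were lower. Etfb was lowest at 1886 ± 772, or 6102 ± 2498 if only the bases free of Gm45233 and a microRNA model were counted. From Etfa down to Decr1 each gene's control range overlapped that of the next, while Hadhb stood clear above Etfa. Etfb stood clear below Decr1 only with all its bases counted, since over the unshared bases its mean was above those of Decr1 and Echs1. Together the 10 genes took 0.262%, 0.305%, 0.321% and 0.221% of all counts in controls and 0.262%, 0.298%, 0.272% and 0.282% in knockouts.

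**Figure D5:**
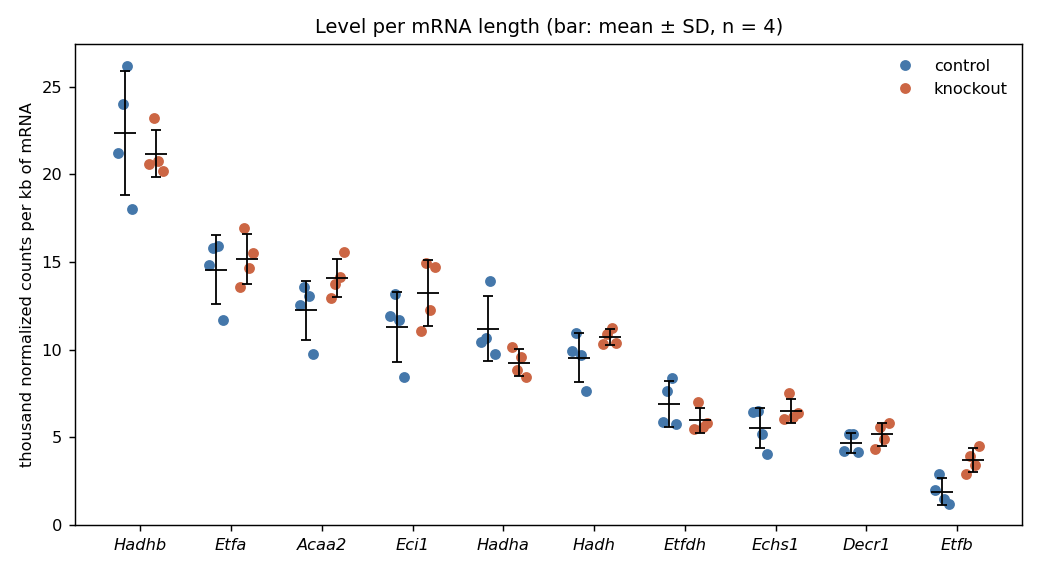
Normalized counts per kb of principal mRNA (vertical axis, in units of 1000, from 0) for the 10 genes in order of their control mean, with control and knockout libraries as points and bars for the mean and SD (n = 4 each). Hadhb leads at 22354 per kb in controls and Etfb is last at 1886 with all its bases counted, but not over its unshared bases (6102).

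The spread between libraries was larger in controls for 9 of the 10 genes, the exception being Decr1 (coefficient of variation 12.3% in controls and 12.9% in knockouts). The coefficient of variation of the 9 genes other than Etfb was 12.3% to 21% in controls and 4.1% to 14.3% in knockouts, and for Etfb it was 40.9% and 18.7%. Control 4 was the lowest library for 8 of the 10 genes, the exceptions being Hadha (knockout 8) and Etfdh (knockout 5). Control 3 was the highest for Hadha, Hadhb and Etfdh. These 3 genes, the ones with lower estimates in knockouts, therefore peaked in the control library that was low for Echs1 and Etfb. The 5 genes whose log2 values followed the mean deviation of the 10 most closely over the 8 libraries, among 15647 genes ranked, were A330069E16Rik, Gm7206, Vgll2, Cmc4 and Arpp19 (Pearson's r 0.97 to 0.99). They are given as a description, and in each of them control 4 was the lowest library.

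The neighbouring steps of the pathway were read from lists of genes, and no gene of any list passed over all genes. Estimates for these and the later lists are from the fit of all 8 libraries, with no length trend removed. Of 7 acyl-CoA dehydrogenases, which feed ETF, 3 had higher and 4 lower estimates (median -0.09). Acads, for short chains, differed by 0.25 ± 0.14 and Acadvl, for very long chains, by -0.15 ± 0.12 (log2, SE). Of 6 genes of the carnitine shuttle, 2 were higher and 4 lower (median -0.32), and 3 lower estimates had an unadjusted p under 0.05, against 13.3% of all genes in that direction. Crat, the carnitine acetyltransferase that buffers acetyl-CoA, differed by -0.34 ± 0.11 with no overlap between groups (limma, adjusted p = 0.0879). Cpt1b, the muscle enzyme of acyl-carnitine formation, differed by -1.42 ± 0.40 with no overlap (adjusted p = 0.0796), on a normalized count of 11.5 to 84.2 and with 81.4% of its exon bases shared with another gene model. Among 11 tested relatives of the 10 genes, 9 were higher and 2 lower (median 0.04), led by the peroxisomal thiolase Acaa1a (0.53 ± 0.13, adjusted p = 0.0796) and Hsd17b10 (0.37 ± 0.16). For Hsd17b10, control replicates 3 and 4 (2926 and 2380) lay under all other libraries.

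Genes that serve ETF had estimates in both directions. Of 7 genes for its flavin cofactor and assembly, 4 had higher and 3 lower estimates (median 0.01). The riboflavin transporter gene Slc52a2 differed by 0.41 ± 0.15 and the mitochondrial flavin carrier gene Slc25a32 by -0.85 ± 0.37 (log2, SE). Slc25a32 was higher in control replicates 3 and 4 (225.4 and 224) than in any other library. Etfbkmt, named here after its values were seen because it encodes the methyltransferase of the ETF beta subunit, differed by 0.09 ± 0.13. Of 7 other dehydrogenases that can pass electrons to ETF, 3 were higher and 4 lower (median -0.08), with Acadsb of isoleucine breakdown at -0.42 ± 0.12 (limma, adjusted p = 0.0796). Of 9 other dehydrogenases that feed ubiquinone, as Etfdh does, 6 were higher and 3 lower (median 0.18). Sdhb and Sdhc of complex II differed by 0.43 ± 0.16 and 0.41 ± 0.16.

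Regulators of the pathway were listed as well. Among 9 genes of the PPAR, estrogen-related receptor and PGC-1 families and their partners, 3 were higher and 6 lower (median -0.19). Ppara, the fatty acid receptor, differed by -0.93 ± 0.35 and Esrra by 0.36 ± 0.15 (log2, SE; limma, adjusted p = 0.121 and 0.146). Control replicates 3 and 4 were extreme in both. Ppara was at 356.4 and 301.4 in them, 101.3 and 187.9 in control replicates 1 and 2, and 74.7 to 159.9 in knockouts. Esrra was at 11243 and 9961 in them. It was at 15684 and 15528 in control replicates 1 and 2, and 14861 to 17781 in knockouts. Among 9 PPAR-responsive genes outside the pathway, 5 were higher and 4 lower (median 0.20), with Mlycd at 0.25 ± 0.13 and Plin5 at 0.28 ± 0.19.

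Markers of other cells and fibres differed between libraries beside these values. In bulk muscle, fewer cells of a type and less RNA per cell cannot be told apart. The fast glycolytic markers summed to 8790382 to 10773322 in controls and 10161321 to 11305238 in knockouts. Of these 9 markers, 5 had higher and 4 lower estimates, from -0.36 to 0.81 on the log2 scale. Their defining myosin gene Myh4 had a normalized count of 2368100 to 3859810 and differed by -0.23 ± 0.14 (log2, SE). The slow myosin gene Myh7 had a normalized count of 953.7 to 15188, with its highest value in control 3. The 10 slow and oxidative markers summed to 187196 in control 4, the library lowest for 8 of the 10 genes, and to 413538 in control 3, the highest of the 8 libraries. Most of each sum was Mb (110003 in control 4, 171910 in control 3) and Myh2 (58594 and 143500), named here after their values were seen. Heart markers (8 of 9 tested) summed to 860.0 to 1521 in 7 libraries and to 12231 in knockout 8, where Myl7 was at 1124 against at most 4.1 elsewhere and Nppa at 1648 against at most 6.1. Knockout 8 was also the highest library for Etfb, Acaa2 and Decr1. Without it the log2 differences were 0.93 for Etfb, 0.16 for Acaa2 and 0.09 for Decr1. The brown adipocyte gene Ucp1 was at 1458 and 885.1 in knockouts 5 and 8 and at 0.0 to 133.4 in the other 6. White adipocyte markers (6 of 7 with higher estimates, 1 lower) summed to 20548 to 40237 in controls and 29419 to 52917 in knockouts. Most of each sum was Fabp4, named here after its values were seen, which differed by 0.75 ± 0.21 (log2, SE). The hormone gene Adipoq of this list had a normalized count of 1191 to 3843 over the 8 libraries and differed by 0.18 ± 0.41. Macrophage markers (9 of 9 with higher estimates) summed to 8429 to 12415 in controls and 12566 to 19940 in knockouts. Fibro-adipogenic markers (8 of 8 with higher estimates) summed to 155347 to 192818 and 196597 to 266890. The largest part of each sum was Gsn, named here after its values were seen, which differed by 0.44 ± 0.13 (log2, SE). The defining marker Pdgfra differed by 0.01 ± 0.12. Endothelial sums (1 of 6 markers with a higher estimate, 5 lower) were 18888 to 23031 and 18033 to 21751. The higher one was Cldn5, named here after its values were seen (0.81 ± 0.23). Erythroid sums (4 of 5 higher, 1 lower) were 19665 to 37405 and 26816 to 35068. The 13 mRNAs of mitochondrial DNA took 7.25%, 6.15%, 10.5% and 9.44% of counts in controls and 7.09%, 3.09%, 5.93% and 2.3% in knockouts. Values are in order of replicate number. Control replicates 1 and 2 were near knockouts 5 and 7, control replicates 3 and 4 were highest and knockouts 6 and 8 were lowest. The part of these differences in the values of the 10 genes was not tested, apart from the fits that leave out a library.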

How the data were processed

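Total RNA (Norgen Biotek) went into NEBNext Ultra II libraries, per the labels' protocols. The submitters' processing notes name GRCm38 as the build and the tools STAR, HTSeq, cutadapt, FastQC and DESeq2. The sources used here give no versions, annotation, strand setting or rule for reads that match several genes. The deposited values are log2 of a normalized count plus 1, a form read from the values themselves. Once converted back to a linear scale, those of each library are whole multiples of a step (0.679 to 1.29), with 100% of those up to 1000 reads within 0.1 of a whole read, as reads divided by a size factor would be. They are not divided by gene length. A floor of 3 reads corresponds to a normalized count of 2.04 to 3.87 and is a limit of counting alone.

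The labels gave each library's group and replicate number. The 12 pairs of replicates within groups differed far beyond sampling noise (chi-square per gene 35.4 to 264.8). Genes entered the test if their normalized counts averaged 10 or more (15657 genes). The test was limma (version 3.58.1, R 4.3.3) with its trend and robust options, run on the log2 values with a pseudocount of 1, and p-values were adjusted by Benjamini-Hochberg with a threshold of 0.05. Differences are knockout minus control, and fold changes on this scale understate the change of low genes. Ratios between 2 genes were tested by exact permutation of the libraries and adjusted over the 7 ratios. The steps were tested on simulated data. In these, the reads for limma had the same dispersion in all genes, no outlying libraries and no length trend, unlike the data here. A count test was foreseen for raw counts. As the unit is log2, limma voom on recovered reads stood in its place as an alternative.

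All 10 genes and Acot2 are named, with the 2 to 4 genes of smallest p in each pathway list, the defining markers of the cell type lists and the 5 genes most like the mean of the 10. A gene that this rule would name is not reported here. The members and lists were chosen with earlier results of these data known. Positions, lengths and overlaps come from GENCODE M21 (GRCm38), which need not be the annotation used for counting, and the mRNA of a gene is its longest principal transcript by APPRIS. The 25 alternatives changed the pseudocount, the filter, the scaling or the variance model, took out the length and GC trend of each library by loess (span 0.5), or left out libraries. The trend on principal mRNA length was added after seeing the data. Tables and figures were made in Python 3.11.15 with matplotlib 3.10.9.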

Additional observations from a re-analysis of the deposited data

How the results depend on the processing

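No paired analysis was possible because the groups share no replicate number. How many genes passed varied with which library was left out and with how the variance was modelled: 1 of 15657 passed as reported, 2 with no filter, with equal totals and without knockout replicates 6 and 8, 4 with the exon length and GC trend removed, 6 with the principal mRNA length and GC trend removed, 7 with no trend in the variance and 1201 with sample quality weights, whose estimation did not converge. Leaving out each library in turn it ran from 1 to 2048, with 1720 without control replicate 1 and 2048 without control replicate 2. The count of the 10 genes passing was 0 as reported, 1 (Etfb) with sample quality weights, and 0 to 1 with a library left out. Acot2 passed under all 25 alternatives (log2 differences -3.43 to -3.06). No scaling moved the median of all genes by 0.1. Scaling to equal totals without mitochondrial mRNAs changed the split at an unadjusted p of 0.05 from 2135 higher and 2080 lower genes to 1699 and 2571.

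Some estimates changed sign. With the exon length and GC trend removed, the log2 difference was 0.10 for Hadhb and -0.035 for Etfa, and the differences of the ratios Etfdh/Etfa, Acaa2/Hadhb and Eci1/Decr1 were 0.0055, -0.086 and -0.14. With the principal mRNA trend removed, Eci1 was at -0.018, Etfa at -0.032 and Eci1/Decr1 at -0.24. Without control replicates 3 and 4, Etfa was at -0.019 and Eci1/Decr1 at -0.069. With these left out and the exon trend removed, they were at -0.0385 and -0.13. With these left out and the principal mRNA trend removed, Echs1, Eci1 and Etfa were at -0.03, -0.011 and -0.036 and Eci1/Decr1 at -0.18. Without knockout replicates 6 and 8, Decr1 was at -0.0067 and Etfa at -0.036. Hadhb ran from -0.16 to 0.015 and Etfa from -0.0385 to 0.12 over the fits without a library. The cause of these turns was not tested. Hadha, Hadh, Acaa2, Etfb and Etfdh kept their sign under all 25 alternatives. The exon length of Echs1, Hadhb and Etfdh is several times that of the mRNA, so the 2 trends treat them differently. For the other genes, apart from Acaa2, the exon length is also larger than that of the mRNA, to a lesser degree. With 2 against 4 libraries the exact test of a ratio cannot go below 0.0667.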
